A study of Mus musculus with 37 samples.

Results

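The comparison described here is that of running wheel access with none in mice under calorie restriction: 9 mammary gland arrays of restricted mice with a wheel (CR+EX) against 9 arrays of restricted mice without one (CR), 18 of the 37 arrays of the study. The arrays were assigned to the groups by their diet regimen label alone, with no measured value used. The comparison itself was chosen with earlier results of these data known. All animals were female C57BL/6 mice with no genetic change given in the labels, 9 weeks old when they were randomized, and followed for 6 weeks. The CR and CR+EX mice both received 70% of the calories of the freely fed animals, with the other nutrients kept at full supply, so both groups carry the 30% restriction and differ in the wheel. The 10 arrays of mice fed ad libitum (AL) and the 9 of mice fed ad libitum with a wheel (AL+EX) shared the fit and served as a second, separate test of the wheel. RNA of each animal came from its left and right thoracic glands in 1 pool, with 1 Affymetrix array per animal. Running was voluntary, and the distance run was not analysed here.

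The mouse mammary gland is a tree of epithelial ducts, with a luminal layer and a contractile basal layer, embedded in a fat pad that makes up most of the tissue of a virgin gland. Calorie restriction shrinks adipocytes, lowers leptin and shifts the daily meal into a short window, after which fat tissue makes new fatty acids. Voluntary running draws on muscle glycogen and on fatty acids released from fat, and is known for inducing Ppargc1a and related genes in working muscle. The question put by the design is whether running adds to, or alters, the gland's expression once calories are restricted.

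No gene differed between CR+EX and CR past the threshold used here, an adjusted p under 0.05 in limma over 9295 genes (0 genes, 0%). Without adjustment 83 genes (0.893%) had p under 0.05, 46 (0.495%) higher and 37 (0.398%) lower with the wheel, where 5% would lie there if p-values were spread evenly. The smallest unadjusted p was 0.0053, for the bone morphogenetic protein gene Bmp6, and its adjusted p in limma was 1.00. In no gene (0%) did the 9 values of one group lie wholly above or below the 9 of the other. The values are log2(signal + 16) of the deposited intensities, differences are on that scale with CR+EX minus CR positive where the wheel group was higher, and ± is the standard error of the fit unless SD is written.

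The other comparisons of the same fit had more small p-values. The wheel under ad libitum feeding (AL+EX minus AL) also had 0 called genes (0%), with 600 genes (6.46%) at an unadjusted p under 0.05. Restriction without a wheel (CR minus AL) had 41 called genes (0.441%), 19 higher (0.204%) and 22 lower (0.237%), and 1386 genes (14.9%) at an unadjusted p under 0.05. Restriction with a wheel (CR+EX minus AL+EX) had 153 called genes (1.65%), 79 higher (0.85%) and 74 lower (0.796%), and 1413 genes (15.2%) at an unadjusted p under 0.05. Both counts of called diet genes moved with the setting. For CR minus AL they were 573 with the run of animal numbers (described with the arrays) as a block, 175 with array quality weights and 13 after median centring (10 higher and 3 lower), and leaving out single restricted arrays gave 9 (without CR replicate 5) to 150 (without CR replicate 1), with 10 to 21 without CR replicate 2, 4, 6, 7, 8 or 9. For CR+EX minus AL+EX they were 558 with the run as a block (316 higher and 242 lower), 112 after median centring (89 and 23) and 149 after quantile normalization (94 and 55), with 59 (without CR+EX replicate 4) to 201 (without CR+EX replicate 8) when single restricted arrays were left out, and 65, 72 and 68 without CR+EX replicates 3, 6 and 7. The last 2 comparisons share the CR or the CR+EX arrays with the wheel comparison, so their values are set beside it and not correlated with it.

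**Figure D1:**
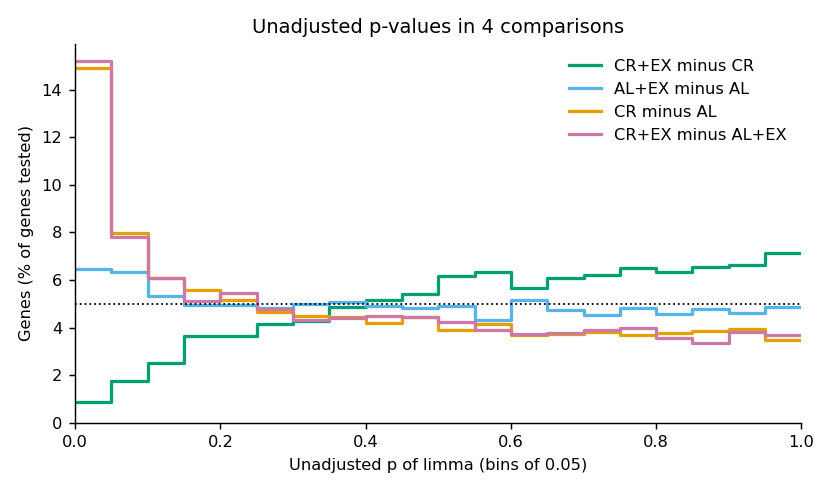
Share of the 9295 tested genes (vertical axis, percent) in each bin of unadjusted p from limma (horizontal axis, bins of 0.05) for 4 comparisons, with the dotted line at the 5% of an even spread. The line of CR+EX minus CR starts at 0.893% in the lowest bin, while the diet comparison CR minus AL starts at 14.9%.

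The size of difference that these arrays leave possible can be read from the confidence intervals. These come from the fit without a term for the run, so their width also holds the spread between runs. The 95% interval of CR+EX minus CR lay within 1.5-fold in either direction for 7347 genes (79.0%) and within 2-fold for 9017 genes (97.0%). The median half-width was 0.32, a 1.25-fold change, with 0.22 at percentile 10 and 0.55 at percentile 90 of the genes. The estimates themselves were small. An estimate beyond 1.5-fold was found for 30 genes (0.323%) with the wheel under restriction, against 98 with the wheel under ad libitum feeding, 271 for CR minus AL and 352 for CR+EX minus AL+EX. Beyond 2-fold there were 0, 2, 28 and 40 genes. The median size of difference was 0.082 for the wheel under restriction, 0.11 for the wheel under ad libitum feeding, 0.15 for CR minus AL and 0.15 for CR+EX minus AL+EX.

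The arrays also give the setting for these values. All 37 arrays had a trimmed mean signal of 500.165 to 500.23, and the highest signal on the 18 arrays lay between 21249 and 53055. The titles carry animal numbers, which were cut after every 24 numbers into 4 runs, and each run holds 2 or 3 arrays of each group. The labels do not say that a run was a batch. Over the 18 arrays the run accounted for a median of 38.9% of a gene's variance and the wheel for 2.07%. The run has more levels than the wheel, so a larger share falls to it by chance alone. The run also accounted for 85.8% and 89.0% of the first 2 principal components (22.2% and 19.9% of the variance), and the wheel for 2.49% and 0.571% of them. Arrays of different groups correlated with each other (median 0.945) about as closely as arrays within CR (0.943) or within CR+EX (0.938). The median SD of a gene was 0.29 in CR and 0.30 in CR+EX.

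With the run as a block, limma again called 0 genes, and 307 genes (3.3%) had an unadjusted p under 0.05. With the 18 arrays alone and the run as a block, a setting added after the data were seen, it called 0 genes, with 461 (4.96%) at an unadjusted p under 0.05. The smallest adjusted p of that setting was 0.26, for Cd99, a surface glycoprotein of leukocytes and endothelium (-0.60 ± 0.11). In every run the CR animals have lower numbers than the CR+EX animals (14 to 16 against 20 to 22 in run 1, for example). Group and place in a run therefore cannot be told apart.

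Cell content was checked against markers. Both groups carried the adipocyte hormone gene Adipoq (mean 14.20 in CR and 14.23 in CR+EX), the luminal keratin genes Krt8 (10.96 and 10.91) and Krt18 (11.50 and 11.50) and the basal keratin gene Krt14 (8.31 and 8.38). The milk genes Csn2 (7.27 and 7.28) and Wap (7.29 and 7.05) were dim. The muscle genes Acta1 (14.74 and 14.64) and Ckm (14.71 and 14.66) were also measured, at about the same level in both groups. Markers of epithelium, fat and muscle were thus present in CR and CR+EX alike.

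Lymphoid genes differed between animals of both groups. The mean over 12 B lymphocyte genes ran from 6.65 through a median of 6.91 to 9.36 in CR and from 6.39 through 6.89 to 9.09 in CR+EX. Arrays fell into a low set, up to 7.11, and a high set, from 7.75, with 4 CR and 3 CR+EX arrays in the high set. In these bulk samples a different number of cells of a type and a different amount of RNA per cell cannot be told apart. The group means differed by -0.23 (7.61 ± 1.09, SD, in CR and 7.38 ± 0.97, SD, in CR+EX, exact permutation test over 48620 regroupings, two-sided, p = 0.645, n = 9 and 9). RNA quality was less even: the Gapdh 3' to 5' signal ratio was above 2 on 2 of the 18 arrays, both CR+EX animals of run 1, and between 0.750 and 1.32 on the rest. With the high set left out, 0 genes were called and 148 had an unadjusted p under 0.05, and with the 2 high-ratio arrays and their like in the freely fed groups left out the counts were 0 and 92.

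A set of 22 genes of fat, clock, fasting and exercise biology, chosen with earlier results of these data known, was followed in all 4 groups. In the fit without a term for the run, none of the 22 had an unadjusted p under 0.05 in CR+EX minus CR (lowest 0.093). Of the 22, 11 were higher and 11 lower. The 95% interval lay within 1.5-fold for 12 of them and within 2-fold for 19. Only 2 of the 22 had the same direction in all 4 runs.

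Elovl6, which elongates palmitate, ran from 13.71 through a median of 14.10 to 14.36 in CR and from 13.50 through 14.11 to 14.57 in CR+EX. The groups overlapped almost wholly, with a difference of -0.00 (95% interval -0.36 to 0.35). Its group means were 13.22 in AL, 12.92 in AL+EX, 14.08 in CR and 14.08 in CR+EX. Both restricted groups thus stood above both freely fed ones, by 0.86 without wheels (adjusted p = 0.015, limma) and 1.15 with wheels (adjusted p = 0.00090). The first of these calls was lost in 2 of 32 alternatives, those without the high B lymphocyte arrays or without the high Gapdh ratio arrays (adjusted p up to 0.16, limma). Me1, the malic enzyme that makes NADPH for fat synthesis, had medians of 14.35 in CR and 14.29 in CR+EX and a difference of -0.09 (-0.49 to 0.31). Fasn, the fatty acid synthase, differed by -0.02 (-0.39 to 0.35) and Scd1, the main desaturase, by -0.06 (-0.57 to 0.44). For these 4 enzymes of fat synthesis the wheel differences were all under 0.1 in size.

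Leptin had the widest interval of these genes. Lep ran from 4.97 through a median of 7.72 to 8.78 in CR and from 5.66 through 7.55 to 9.87 in CR+EX. The difference was 0.03 (-1.09 to 1.14), so changes of up to 2-fold in either direction lie inside the interval. It rested on a few arrays: with the arrays of high Gapdh ratio left out the difference was 0.55 (unadjusted p = 0.33, limma, fitted across all genes), and leaving out single arrays gave -0.30 to 0.26. The means of Lep were 9.44 in AL, 8.46 in AL+EX, 7.55 in CR and 7.57 in CR+EX. The freely fed runners stood 0.98 lower than the freely fed mice without wheels (-0.98 ± 0.54, unadjusted p = 0.075), and the interaction did not pass (1.01 ± 0.77, unadjusted p = 0.20, adjusted p = 1.00 in limma). Within the runs the Lep difference under restriction was 0.21, 1.17, -1.04 and -0.44. Retn, the adipokine resistin, differed by 0.12 (-0.44 to 0.68) and Adipoq, adiponectin, by 0.03 (-0.28 to 0.34). Sfrp5, a secreted Wnt inhibitor of fat, differed by -0.41 ± 0.29, with within-run values of -1.23, 0.43, -1.32 and 0.37. Without the 2 CR+EX arrays of high Gapdh ratio and their like the Sfrp5 difference was -0.03, and leaving out single arrays gave -0.55 to -0.18. Mest, which follows fat expansion, differed by -0.12 (-0.47 to 0.23).

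Of the clock genes, Nr1d1, Dbp and Nfil3 were among those followed. The first, which encodes the repressor REV-ERB alpha, ran from 6.04 through 8.11 to 8.98 in CR and from 6.10 through 7.59 to 9.55 in CR+EX. Its difference was -0.13 (-0.79 to 0.52), while CR stood 1.81 below AL (-1.81, adjusted p = 0.0027, limma) and CR+EX stood 1.66 below AL+EX (-1.66, adjusted p = 0.0044). With the high B lymphocyte arrays left out, these adjusted p-values were 0.095 and 0.050 (limma), neither past the threshold. Dbp, an activator of clock output genes, had means of 10.59 in AL, 10.44 in AL+EX, 9.19 in CR and 9.16 in CR+EX, with a wheel difference of -0.03 (-0.54 to 0.49). Nfil3, the repressor that competes with Dbp for its sites, had means of 7.30 in AL, 8.54 in CR and 8.65 in CR+EX, with a wheel difference of 0.11 (-0.28 to 0.51). The Nr1d1 difference was -1.03 within run 1 and 0.53 within run 4, so the direction was not shared by the runs.

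**Figure D2:**
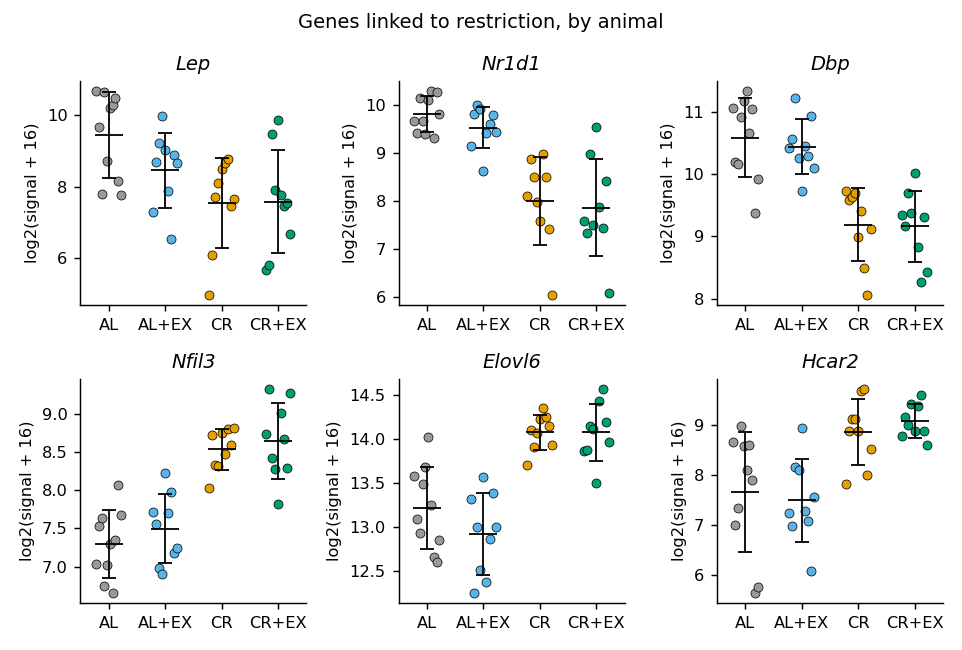
Values of Lep, Nr1d1, Dbp, Nfil3, Elovl6 and Hcar2 in log2(signal + 16) (vertical axis) for each animal of the 4 groups (points), with the group mean and SD as a black bar. For Elovl6 the CR and CR+EX means are both 14.08 and lie above the AL (13.22) and AL+EX (12.92) means.

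The next 3 genes belong to ketone sensing, the angiotensin system and epithelial defence. Hcar2, the adipocyte receptor for the ketone body beta-hydroxybutyrate and for niacin, had means of 7.65 in AL, 7.49 in AL+EX, 8.86 in CR and 9.07 in CR+EX, with a wheel difference of 0.21 (-0.53 to 0.96). For the diet it was called with wheels (1.58, adjusted p = 0.019, limma) and not without (1.21, adjusted p = 0.092). Enpep, the aminopeptidase that trims angiotensin II, differed by 0.12 (-0.56 to 0.81) and the defensin gene Defb1 by 0.07 (-0.86 to 1.00). Their intervals are wide, reaching 0.81 for Enpep and 1.00, a 2-fold change, for Defb1. Wheel differences inside these intervals are not excluded.

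Of the followed genes named for exercise or fasting, none had an interval that left out 0. Pdk4, the kinase that shuts off pyruvate dehydrogenase when fat is burnt, ran from 13.09 through 13.39 to 14.32 in CR and from 12.87 through 13.63 to 13.85 in CR+EX, a difference of -0.06 (-0.42 to 0.30). Ppargc1a, the coactivator of mitochondrial genes that running induces in muscle, differed by -0.16 (-0.56 to 0.24), and all 4 of its other probe sets had the same direction. The Ppargc1a difference was -0.34 with the high B lymphocyte arrays left out and -0.31 with those of high Gapdh ratio left out, and -0.26 to -0.06 when single arrays were. Angptl4, a fasting-induced inhibitor of lipoprotein lipase, differed by -0.04 (-0.39 to 0.31). The uncoupling protein genes Ucp1, of brown and beige fat, and Ucp3, of muscle, differed by 0.18 (-0.74 to 1.10) and 0.02 (-0.24 to 0.28). Fkbp5, a glucocorticoid target, differed by 0.14 (-0.32 to 0.60). Under ad libitum feeding Ucp3 was higher with the wheel by 0.26 ± 0.13 (unadjusted p = 0.046), and neither Ucp3 nor Ppargc1a passed in the interaction (-0.24 ± 0.18 and -0.47 ± 0.28).

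Igf1, the growth factor whose serum level restriction lowers, had the lowest p of the 22. It ran from 9.41 through a median of 10.02 to 10.53 in CR and from 9.84 through 10.34 to 10.89 in CR+EX, and 2 CR+EX animals stood above every CR animal. The difference was 0.35 (-0.06 to 0.75, unadjusted p = 0.093, adjusted p = 1.00 in limma), and 1 of its 2 other probe sets had the same direction. With the run as a block the Igf1 difference was 0.31. With the 18 arrays alone and the run as a block, its unadjusted p was 0.0055 (limma), in a setting that called 0 genes. Igf1 was called in the diet comparison with wheels (CR+EX minus AL+EX, 0.74, adjusted p = 0.046) and not in that without (CR minus AL, 0.28, adjusted p = 0.54). The call with wheels held in 15 of 32 alternatives (adjusted p up to 0.20, limma), and the interaction, which tests that contrast of the 2, did not pass (0.46 ± 0.28, unadjusted p = 0.11, adjusted p = 1.00).

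**Figure D3:**
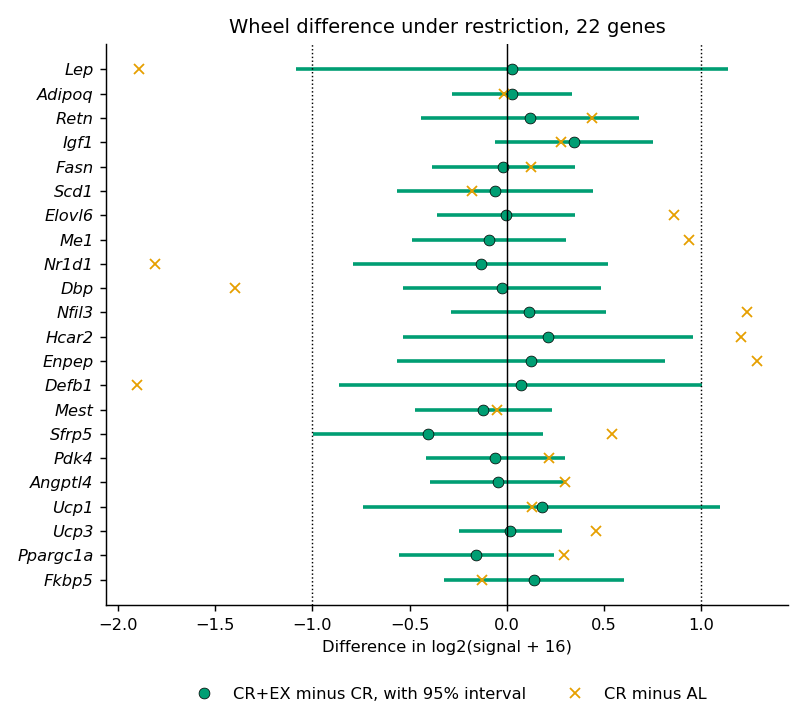
Difference CR+EX minus CR (green points) with its 95% confidence interval (bars) on the log2(signal + 16) scale (horizontal axis) for the 22 followed genes (rows), with the difference CR minus AL as crosses. In this fit, which has no term for the run, every interval of the wheel difference holds 0, from the narrow one of Ucp3 (-0.24 to 0.28) to the wide one of Lep (-1.09 to 1.14).

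The 20 genes with the smallest p in CR+EX minus CR are described next. They are the extremes of a comparison in which 0 genes passed, so none of them is a called change. Of the 20, 11 were higher and 9 lower with the wheel, by 1.19-fold to 1.66-fold, with unadjusted p between 0.0053 and 0.019 and every adjusted p at 1.00 (limma). The direction was the same in all 4 runs for 17 of them, beside 62 of the 83 genes with an unadjusted p under 0.05 (74.7%) and 1245 of all genes (13.4%). The 20 were picked on these same arrays, so the runs are no separate check. In addition, 9 of the 20 had the same direction in the separate wheel comparison under ad libitum feeding. Of the 7 with other probe sets, all others had the same direction in 4 genes and none in 2 genes.

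Bmp6, a ligand of the BMP branch of TGF-beta signalling that also controls iron through hepcidin, ran from 7.93 through 8.31 to 8.57 in CR and from 8.35 through 8.63 to 8.71 in CR+EX. Of the 9 CR+EX animals, 6 stood above the highest CR animal. The difference was 0.30 ± 0.10 (unadjusted p = 0.0053), and it was positive within every run (0.36, 0.46, 0.20 and 0.25). Under ad libitum feeding the wheel difference of Bmp6 was 0.06 ± 0.10, and the interaction had an unadjusted p of 0.098. Leaving out single arrays moved it between 0.26 and 0.34.

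Cd300c2, an immunoglobulin-like receptor of myeloid cells, ran from 7.93 through 8.22 to 8.55 in CR and from 7.22 through 7.80 to 8.09 in CR+EX, with 6 CR+EX animals below the lowest CR animal. The difference was -0.44 ± 0.15, and -0.45 with the high B lymphocyte arrays left out. The median of 13 macrophage genes was also below 0 (-0.20), and their part in the Cd300c2 difference was not tested. Tcirg1, a subunit of the vacuolar proton pump that is high in osteoclasts, differed by -0.30 ± 0.12, with 4 CR+EX animals below the lowest CR animal. The Tcirg1 difference was -0.19 with the arrays of high Gapdh ratio left out and -0.21 with the high B lymphocyte arrays left out.

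Ppa2, the mitochondrial inorganic pyrophosphatase, was tight within groups. It ran from 9.76 through 9.82 to 10.02 in CR and from 9.91 through 10.20 to 10.40 in CR+EX, with 6 CR+EX animals above the highest CR animal and a difference of 0.25 ± 0.09. Under ad libitum feeding its difference was -0.08 ± 0.09. Other mitochondrial genes among the 20 were Mrpl48, of the mitochondrial ribosome (0.40 ± 0.15), and Lyrm2, a small LYR-motif protein of the organelle (0.50 ± 0.20). The mean over all probe sets was smaller, 0.28 for Mrpl48 and 0.26 for Lyrm2. With the high B lymphocyte arrays left out, Mrpl48 came to 0.29 (unadjusted p = 0.14, limma) and Lyrm2 to 0.75. Mrpl48 was also higher with the wheel under ad libitum feeding (0.29 ± 0.15, unadjusted p = 0.052), and Lyrm2 was not (-0.04 ± 0.19) and had the opposite direction in run 1 (-0.32).

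Tph1, the tryptophan hydroxylase that starts serotonin synthesis outside the brain, had the largest difference of the 20. It ran from 7.13 through 7.81 to 8.63 in CR and from 7.73 through 8.27 to 9.82 in CR+EX, and 3 CR+EX animals stood above the highest CR animal. The difference was 0.73 ± 0.29 (1.66-fold, unadjusted p = 0.015), and in the freely fed animals, which are other mice, the wheel difference was 0.70 ± 0.28 (unadjusted p = 0.017). The 2 estimates were close, and the interaction was 0.03 ± 0.40. Neither passed after adjustment (adjusted p = 1.00 under restriction, limma). Within runs the difference was 1.56, 0.96, -0.21 and 0.61, so run 3 went the other way. Without the arrays with a high Gapdh ratio, of which the CR+EX ones lie in run 1, the difference was 0.57.

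Sars, the seryl-tRNA synthetase of the cytosol, had differences of opposite sign under the 2 diets. It ran from 9.96 through 10.22 to 10.54 in CR and from 9.50 through 10.02 to 10.28 in CR+EX, a difference of -0.30 ± 0.11 (unadjusted p = 0.011). Under ad libitum feeding the wheel group was higher, by 0.45 ± 0.11 (unadjusted p = 0.00024), with means of 9.88 in AL and 10.33 in AL+EX. The interaction, -0.75 ± 0.16, had the smallest p of all genes (unadjusted p = 3.0e-05), and it did not pass (adjusted p = 0.28 in limma, and between 0.072 and 0.998 for the smallest of all genes over the alternatives). The wheel difference under restriction was negative within all 4 runs (-0.55, -0.07, -0.37 and -0.31). The 1 other probe set had the same direction, but the mean over all probe sets was only -0.16. Without the arrays of high Gapdh ratio the difference was -0.21 (unadjusted p = 0.059, limma), and without the high B lymphocyte arrays -0.22 (unadjusted p = 0.14, limma).

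**Figure D4:**
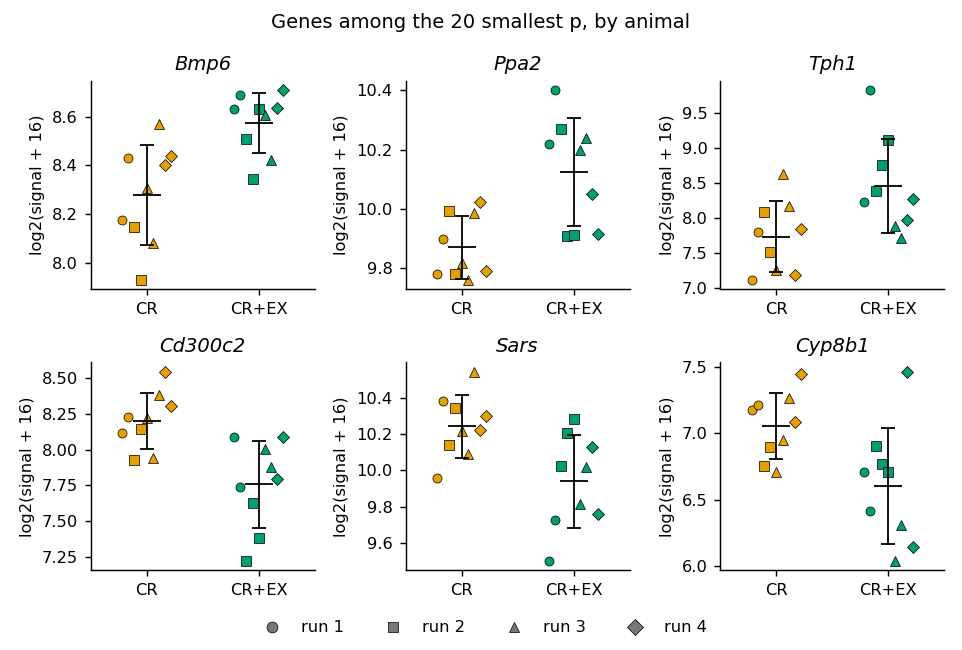
Values of Bmp6, Ppa2, Tph1, Cd300c2, Sars and Cyp8b1 in log2(signal + 16) (vertical axis) for each CR and CR+EX animal (points, with the marker shape giving the run of animal numbers), with the group mean and SD as a black bar. For Bmp6, 6 of the 9 CR+EX animals lie above the highest CR animal, and for Cd300c2 6 lie below the lowest, while the groups overlap in all 6 genes.

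Cyp8b1, the sterol 12-alpha-hydroxylase of bile acid synthesis, had the same crossing pattern at a dim signal. It ran from 6.71 through 7.08 to 7.45 in CR and from 6.04 through 6.70 to 7.46 in CR+EX, a difference of -0.45 ± 0.18, against 0.57 ± 0.18 under ad libitum feeding. The interaction was -1.02 ± 0.26 (unadjusted p = 0.00031, adjusted p = 1.00, limma). Over all genes the interaction called 0 (0%), with 295 genes (3.17%) at an unadjusted p under 0.05. The next smallest were the unnamed transcript 2610524H06Rik (0.73 ± 0.21), the splicing factor Srrm3 (0.60 ± 0.18) and the ribosome production factor Rpf1 (-0.67 ± 0.20). In these 3 the larger difference was the one in freely fed animals (-0.51, -0.41 and 0.48), and under restriction it was 0.22, 0.19 and -0.18.

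None of the 20 genes belonged to the lists described next, and the rest of them had the following values. Those higher with the wheel were the zinc finger gene Zfp160 (0.51 ± 0.18), the histone gene H3c7 (0.46 ± 0.16), Il17rb, the receptor for the cytokine IL-25 (0.44 ± 0.18), the kinase Dyrk1a (0.39 ± 0.15), Uhrf1bp1 (0.36 ± 0.15) and Ankmy2 (0.30 ± 0.12). Those lower were the cornified envelope gene Evpl (-0.57 ± 0.21), the DNA polymerase epsilon subunit Pole2 (-0.56 ± 0.22), the RNA-binding gene Lsm7 (-0.52 ± 0.21), the bromodomain gene Brd3 (-0.42 ± 0.15) and Ap5s1, of the AP-5 adaptor (-0.40 ± 0.16). The other probe sets went against Dyrk1a and Ankmy2: 0 of 2 had the same direction in each, and the mean over all probe sets was 0.06 for both. For Brd3, 1 of 2 did, and the mean was -0.07. With the high B lymphocyte arrays left out, Evpl came to -0.26 and Uhrf1bp1 to 0.09. Ap5s1 came to -0.25 with the arrays of high Gapdh ratio left out and to -0.28 as the mean over all probe sets.

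The genes were then read by 49 lists of pathways and cell types, of which 45 had 5 or more tested genes and 4 had fewer. Of the 717 distinct list genes tested, 0 were called and 5 (0.697%) had an unadjusted p under 0.05, against 0.893% of all genes. The list medians of CR+EX minus CR ran from -0.25 to 0.091, beside 0.0060 over all genes, and 40 of the 45 lay within 0.1 of 0. There were 14 medians above 0 and 31 below, while 4872 of the 9295 genes (52.4%) were higher. The sign of the median was kept under all 4 other scalings in 33 of the 45 lists.

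Lists of fat and sterol synthesis and of the clock are given first, and no list was tested as a set. The 22 lipogenesis genes had a median of -0.02, with 9 higher, beside 0.25 for CR minus AL and 0.36 for CR+EX minus AL+EX. Of the 22, 2 were called higher in the first of those diet comparisons (Me1 and Elovl6, where 0.204% of all genes were) and 5 in the second (Me1, Elovl6, Acly, Acss2 and Dgat2, where 0.85% were), and 0 lower in either. The Me1 call without wheels held in 29 of 32 alternatives (adjusted p up to 0.13, limma). With wheels, Dgat2 held in 25 (up to 0.14) and Acss2 in 28 (up to 0.076), while Me1, Elovl6 and Acly held in all 32. The 1 lipogenesis gene with an unadjusted p under 0.05 for the wheel was Gpam, which attaches the first fatty acid to glycerol phosphate (0.26 ± 0.13, unadjusted p = 0.047). Its other probe set went the opposite way, and the mean of both was -0.16. The 19 cholesterol synthesis genes had a median of -0.04 for the wheel, beside 0.15 and 0.32 for the diet, and the 9 genes of NADPH supply a median of -0.03, beside 0.25 and 0.29. Of the 19, 2 were called higher in each diet comparison, and of the 9, 1 without wheels and 2 with them. The 18 clock genes had a median of 0.02, and none went beyond 0.24 in size (Bhlhe40, 0.24 ± 0.15).

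Lists tied to exercise and fuel use follow. The 26 genes of the exercise response had a median of -0.01, with 13 higher and 13 lower and 0 at an unadjusted p under 0.05. They spread from -0.38 ± 0.28 for the nuclear receptor Nr4a1 to 0.41 ± 0.25 for the stress-induced Sesn1, which were picked as the ends of the list after their values were seen. Fatty acid oxidation (21 genes) had a median of -0.04, the TCA cycle (25 genes) -0.02, the respiratory chain (40 genes) 0.01, lipolysis and lipid droplets (15 genes) -0.09, and brown and beige fat (12 genes) -0.02. With the arrays of high Gapdh ratio left out, the lipolysis median turned to 0.085 and that of brown and beige fat was -0.11. In ketone use, Bdh1, which oxidizes beta-hydroxybutyrate, differed by -0.70 ± 0.33 (unadjusted p = 0.039). It ran from 6.88 through 7.04 to 7.63 in CR and from 4.45 through 7.18 to 7.58 in CR+EX, so the CR+EX median was the higher one. Within run 3 the difference was -2.40, against 0.26, -0.63 and 0.01 in the others. Bdh1 is dim, and its difference was -1.01 on log2(signal + 1) and -0.39 on log2(signal + 64). It was -1.01 with the arrays of high Gapdh ratio left out, -0.95 with the high B lymphocyte arrays left out, and -0.84 to -0.45 when single arrays were. Under ad libitum feeding the wheel difference of Bdh1 was 0.77, and the interaction, -1.47, did not pass.

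Skeletal muscle genes are bright in these glands. The 26 tested muscle genes had a median of -0.07, with 6 higher. Their mean level ran from 12.50 through 12.84 to 13.22 in CR and from 12.49 through 12.67 to 13.21 in CR+EX, nearly the same ranges. Under ad libitum feeding the same list had a median of 0.29. The list medians within runs were 0.05, -0.25, -0.17 and 0.21 under restriction, and the median was -0.18 with the high B lymphocyte arrays left out.

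The epithelial lists had these medians: luminal epithelium (18 genes) -0.02, basal epithelium (11 genes) 0.01, milk proteins (9 genes) 0.01 and the response to estrogen, progesterone and prolactin (13 genes) 0.00. The milk protein genes ran from -0.91, the largest fall of all genes tested, to 0.51, with 0 at an unadjusted p under 0.05. That lowest value was also the lowest of the lymph node stroma list (3 genes). With the high B lymphocyte arrays left out the luminal median was -0.11 and that of milk proteins 0.11, and with the arrays of high Gapdh ratio left out the luminal median was -0.14. The luminal level ran from 8.01 through 9.56 to 10.07 in CR and from 8.87 through 9.34 to 9.97 in CR+EX. The diet medians of the luminal list were -0.46 without wheels and -0.35 with them, with 0 genes called in either. In the proliferation list (21 genes, median -0.09), the replication helicase subunit Mcm6 differed by -0.73 ± 0.35 (unadjusted p = 0.042), from -0.04 within run 2 to -1.89 within run 3, while its 1 other probe set went the other way (mean of both -0.33). In collagens and matrix (42 genes, median 0.01), the gelatinase Mmp2 differed by 0.51 ± 0.24 (unadjusted p = 0.042). In cytosolic heat shock (16 genes, median -0.09), the inducible chaperone Hspa1a differed by -0.54 ± 0.26 (unadjusted p = 0.047).

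The lowest medians were those of 3 immune cell lists. B lymphocytes (12 genes) had -0.25, macrophages (13 genes) -0.20 and T lymphocytes (6 genes) -0.13, with 0 of the 31 genes at an unadjusted p under 0.05. The medians of other immune lists lay closer to 0, with plasma cells (6 genes) at -0.02, mast cells (5 genes) at 0.01, neutrophils (4 genes) at 0.07, the interferon response (20 genes) at -0.04 and inflammation (17 genes) at -0.07. The 5 mast cell genes were spread widely, from -0.85 to 0.18. Their lowest interaction, -1.80, was also the lowest of all genes tested, and none of the 5 was called in the interaction. Macrophage medians within runs were -0.23, 0.14, -0.27 and -0.03, and the macrophage level ran from 8.51 through 8.88 to 9.83 in CR and from 8.53 through 8.93 to 9.76 in CR+EX. With the high B lymphocyte arrays left out (4 CR and 3 CR+EX), the 3 medians were 0.05, -0.03 and 0.04. Those arrays were picked by the mean of the same B lymphocyte genes, so a smaller B lymphocyte median was built into that setting. The part of these arrays in the differences was not tested. The 3 medians were -0.25, -0.27 and -0.12 with the run as a block. They were -0.24, -0.14 and -0.11 with the arrays of high Gapdh ratio left out. Of the other 2 lists beyond 0.1, nerve and Schwann cells (5 genes) had -0.12 and fibroblasts (14 genes) -0.10. They were -0.06 and -0.00 without the high B lymphocyte arrays. Cytosolic ribosomal proteins (25 genes) had a median of -0.06, with 21 of them lower, where 47.6% of all genes were lower. That median was -0.00 with the high B lymphocyte arrays left out and -0.02 with the run as a block. The 29 proteasome genes had 0.05, with 20 higher, and 0.03 with the same arrays left out.

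**Figure D5:**
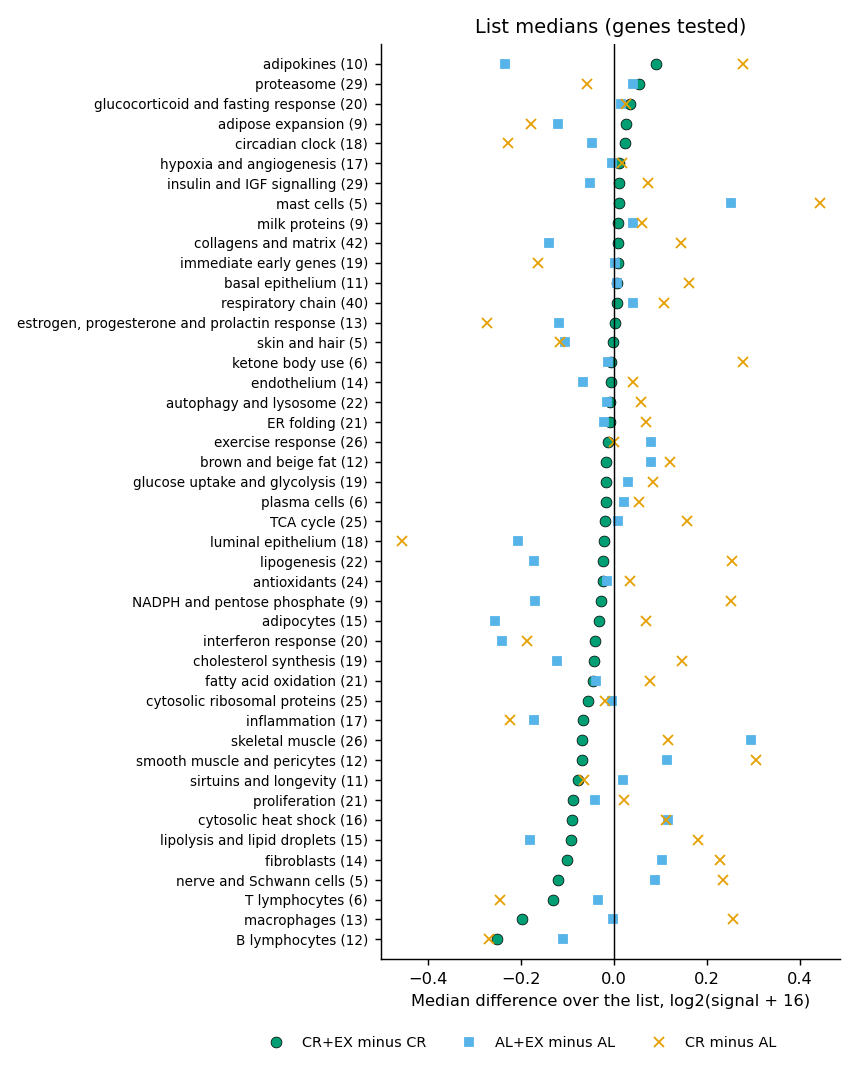
Median difference of each gene list with 5 or more tested genes (rows, number of genes in brackets) on the log2(signal + 16) scale (horizontal axis) for CR+EX minus CR (circles), AL+EX minus AL (squares) and CR minus AL (crosses, which share the CR arrays with the circles). The circles stay between -0.25 (B lymphocytes) and 0.091 (adipokines).

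The 2 wheel comparisons use different animals, although they share the runs and the estimate of spread, and they were set against each other gene by gene. Across the 9295 genes the differences correlated at r = -0.024 (Spearman's rho -0.017), as a description across genes, which are not independent replicates. The direction was the same in 4548 genes (48.9%). Of the 83 genes with an unadjusted p under 0.05 under restriction, 44 (53.0%) had the same direction under ad libitum feeding. Counted in either direction, 9 of the 83 had an unadjusted p under 0.05 in both, where 6.46% of all genes had one under ad libitum feeding. Of the 600 genes of the freely fed comparison, 283 (47.2%) had the same direction under restriction. A shared wheel response across the 2 diets was therefore not detectable at this number of arrays, and with 0 genes passing the interaction a difference between the 2 responses was not detectable either.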

How the data were processed

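Total RNA of 37 mouse mammary glands was hybridised to 1 Affymetrix array each. The values used are signal intensities on a linear scale, as deposited by the authors, already scaled to a common trimmed mean (2% cut at each end). GCOS version 1 is named in the submitters' processing notes, while its signal algorithm is not given in the sources used here. No column of another sample was present (0 columns), and no 2 arrays held identical values.

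Probe sets (22690) were named through the platform's gene table: 20380 name 1 gene, 691 several, 1555 none, and 64 are controls. Each of 12393 genes was read by its brightest probe set, averaged over the 37 arrays, as log2(signal + 16), which damps noise and understates the change of dim genes. The dimmest 25% of genes (a mean below a signal of 88.7) were dropped, leaving 9295. The number of arrays limits the precision, since array data carry no counts.

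Group means were fitted to all 37 arrays with limma 3.58.1 in R 4.3.3 (eBayes with a mean trend, 33 residual degrees of freedom, two-sided, Benjamini-Hochberg over all genes within a comparison, adjusted p under 0.05). The interaction is CR+EX minus CR, minus AL+EX minus AL. CR minus AL and CR+EX minus AL+EX came from the same fit. The script was tested on simulated arrays. Named genes were, as 0 passed, the 20 with the smallest p, in each list the member with the smallest unadjusted p under 0.05 in each direction, the 5 smallest p of the interaction, and 22 genes followed throughout, and any other gene named was picked after its values were seen. The comparison, the gene lists and the followed genes were chosen with earlier results of these data known. The labels give separate animals, so p-values measure the spread between animals. The main fit has no term for the run, so that spread includes the spread between runs. Alternatives covered scaling, pseudocount, filter, probe sets, run, B lymphocyte content, Gapdh ratio, weights and each array left out. No sequence was printed, since 0 genes were called.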

Additional observations from a re-analysis of the deposited data

Results flagged for a closer look

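Among 102 groups of 9 values checked (the 50 named genes and the B lymphocyte mean, in CR and in CR+EX), 13 had 1 animal far from the others, at a gap that chance gives in about 1 group in 20. Replicates are numbered in accession order, and values are log2(signal + 16).

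Among the genes with the smallest p, H3c7 had a CR animal (replicate 4) at 7.16, with the next at 6.67, and Dyrk1a a CR animal (replicate 2) at 8.58, with the next at 8.16. Both animals stood high in the lower group. Il17rb had a CR animal (replicate 5) at 5.55, with the next at 6.63, and the difference was 0.28 at its smallest when single arrays were left out. Evpl had a CR+EX animal (replicate 9) at 5.54, with the next at 6.57, and Pole2 one (replicate 6) at 5.20, with the next at 6.13, both in the lower group. Mrpl48 had a CR+EX animal (replicate 3) at 9.44, with the next at 9.87. Srrm3, from the interaction, had a CR+EX animal (replicate 5) at 7.41, with the next at 7.84.

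Hspa1a had a CR+EX animal (replicate 3) at 5.78, with the next at 7.31, and its difference of -0.54 came to -0.26 at its smallest when single arrays were left out. Of the followed genes, Me1 had a CR animal (replicate 1) at 13.62 and Enpep one (replicate 8) at 9.96. The animal of Enpep was also that of Pdk4, where CR replicate 8 stood highest at 14.32. Defb1 had 1 high animal in each group, CR replicate 9 at 9.46 and CR+EX replicate 5 at 9.47, where the next values were 7.75 and 7.93.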

How the results depend on the processing

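All 35 alternatives called 0 genes in CR+EX minus CR, with 63 to 134 genes at an unadjusted p under 0.05 when single arrays were left out and 46 to 461 under the other 17. The interaction (33 alternatives, smallest adjusted p 0.072 to 0.998) and AL+EX minus AL (33 alternatives, 0.15 to 0.58) also had 0 called genes. With the run as a block the counts at an unadjusted p under 0.05 were 307, 650 and 1004, against 83, 295 and 600. No paired analysis was possible because the replicate numbers follow accession order and pair no animals. The median over all genes was 0.022 after median centring and 0.012 after quantile normalization. The difference in the B lymphocyte mean stayed between -0.44 and -0.011 (exact permutation p 0.359 to 0.983 over 24 alternatives). Of 1733 alternative values for the 50 named genes, 89 in 16 genes changed sign, 0 of them among the 20 genes with the smallest p. The number of arrays and the spread between runs limit what was detectable: the half-width of the 95% interval was 0.55 at percentile 90 of the genes.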
